A study of Mus musculus with 25 samples.

Results

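The genes described here handle cholesterol and neutral lipid inside myeloid cells. They are the 10 genes *Abca1*, *Abcg1*, *Nr1h3*, *Npc1*, *Npc2*, *Lipa*, *Soat1*, *Plin2*, *Ch25h* and *Lpl*, chosen by name from the 22439 genes counted in single myeloid cells of the injured mouse spinal cord, and their levels were read in each library by cell type, time point and cluster. All 10 were measured, and all 10 passed the low-count filter of every test.

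Cells were sorted from a 5 mm piece of cord around the lesion, after myelin had been removed on Percoll, and sequenced as 3′ ends of transcripts with molecular barcodes (UMIs). There were 25 libraries, each pooled from 1 to 3 mice. The mixed libraries, 12 in number, held all YFP+ cells of Cx3cr1CreERT2 mice, in which the Cx3cr1 locus marks microglia and monocyte-derived cells. Cx3cr1CreERT2:R26tdTomato mice, which also carry an RFP reporter switched on by the Cre, gave 5 resident libraries (RFP+/YFP+ cells) and 7 infiltrating libraries (RFP-/YFP+ cells). All mice thus carried the Cx3cr1CreERT2 allele, and sort and strain could not be told apart between mixed and sorted libraries. Cords were taken after laminectomy alone (Ctrl, 1 mixed and 1 resident library) or after laminectomy with injury at day 1 (D1, 3 mixed and 2 infiltrating), day 2 (D2, 2 mixed, 1 resident and 1 infiltrating), day 3 (D3, 3 mixed, 2 resident and 1 infiltrating), day 10 (D10, 2 mixed, 1 resident and 2 infiltrating) and day 21 (D21, 1 mixed and 1 infiltrating). Microglia made up 3.05% of the cells of D2_mixed 2 and 14.4% of those of D3_mixed 3, against 87.3% to 100% in the other 10 mixed libraries. The remaining D3 library was titled infiltrating and labelled RFP+/YFP+, and held 0.211% microglia. It was left out of the main tests and of the levels by cell type and time, but its 3800 cells are in the cluster values. Each library was labelled male or female, and sex was unbalanced over time. Ctrl_mixed 1, D2_mixed 1 and D21_mixed 1 were female and the other mixed libraries male. Among mixed libraries D2 alone thus held both sexes. D3_resident 1, D10_resident 1, D1_infiltrating 1, D2_infiltrating 1 and D10_infiltrating 1 were female, as was the D3 library with conflicting labels. The other sorted libraries were male. The age of the mice is not given in the sources used here.

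The number of cells per library ran from 155 to 3800, that of UMIs from 486649 to 33204422, and 127 cell barcodes occurred in 2 or more libraries, which touched 0.8205% of the cells. Cell types were those of the deposited annotation, checked against markers. The microglia code (13289 cells) carried 9 of 9 microglia markers. The macrophage code (12841 cells) carried 8 of 9 macrophage and 4 of 8 monocyte markers, so that macrophages and monocytes are not separated in it. The other two codes were dendritic-like (2712 cells, 6 of 10 markers) and neutrophil-like (2116 cells, 7 of 7 markers). Levels are CPM (the counts of a gene scaled to a fixed total of UMIs) of the summed cells of 1 type in 1 library, so that a library and not a cell is the replicate. Because 3′ tags were counted, levels are compared within a gene and not between genes.

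Cells take up cholesterol in lipoproteins and in engulfed membranes such as myelin. The acid lipase encoded by *Lipa* frees it from its esters in the lysosome, and the products of *Npc2* and *Npc1* hand it across the lysosomal membrane. Free cholesterol is esterified by the enzyme of *Soat1* and stored in lipid droplets coated by perilipin 2 (*Plin2*), or is pumped out to apolipoproteins by the ABC transporters of *Abca1* and *Abcg1*. Both transporter genes are classic targets of the liver X receptors, of which *Nr1h3* encodes LXRα. *Ch25h* makes 25-hydroxycholesterol, an oxysterol that activates these receptors and restrains sterol synthesis, and *Lpl* encodes the lipase that releases fatty acids from lipoprotein triglycerides.

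The promoters of 3 members with different time courses are printed here, chosen among those in the RefSeq table, so that the sequence near the start can be set beside the levels: *Abca1* was highest at D10 in microglia, *Plin2* was high early in both cell types, and *Ch25h* was near 0 in Ctrl microglia. They are RefSeq sequences of the GRCm38.p6 assembly, all from the minus strand, chr4:53159886-53160145, chr4:86670050-86670309 and chr19:34475139-34475398. Capitals mark in *Abca1* the match, on the opposite strand and with 3 mismatches, to the direct repeat bound by LXR (AGGTCA, 4 bases of any kind, AGGTCA), which starts 67 bases before the start site. In *Plin2* they mark the E-box CACGTG, 4 bases before the start, and in *Ch25h* the TATAAA at 151 bases before it.
Abca1: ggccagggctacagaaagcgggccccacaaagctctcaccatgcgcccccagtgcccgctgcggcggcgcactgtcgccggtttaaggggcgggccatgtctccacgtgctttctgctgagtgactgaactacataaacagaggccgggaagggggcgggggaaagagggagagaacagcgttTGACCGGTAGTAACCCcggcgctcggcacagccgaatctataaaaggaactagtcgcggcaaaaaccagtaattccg
Plin2: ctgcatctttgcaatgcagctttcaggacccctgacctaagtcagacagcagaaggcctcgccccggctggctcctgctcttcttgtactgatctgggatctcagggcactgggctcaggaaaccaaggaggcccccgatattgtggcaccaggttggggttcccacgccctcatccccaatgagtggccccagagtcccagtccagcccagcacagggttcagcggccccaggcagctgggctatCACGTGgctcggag
Ch25h: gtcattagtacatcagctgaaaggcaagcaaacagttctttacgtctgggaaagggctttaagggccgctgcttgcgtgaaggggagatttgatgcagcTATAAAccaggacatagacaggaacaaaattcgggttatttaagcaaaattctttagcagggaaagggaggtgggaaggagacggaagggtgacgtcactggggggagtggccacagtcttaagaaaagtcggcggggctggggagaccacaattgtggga

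Of the 10 members, 7 had a promoter in the RefSeq table (8 promoters), and these were searched on both strands from 250 bases before to 50 bases after the start. The repeat with up to 3 mismatches occurred in 21.9% of all 32851 promoters of that length, and with up to 2 mismatches in 3.02%, a closeness that no member promoter reached. CACGTG occurred in 7.15% of all promoters and also in the *Abca1* promoter, 147 bases before the start. TATAAA occurred in 13.6%, and also in *Abca1* (29 bases before the start) and, on the opposite strand, in *Lipa*. The interferon-response-like GAAA-NN-GAAA (3.44% of promoters) and the NF-κB-like GGGA-NN-TTCC (1.47%) were found in none of the 8. *Ch25h* (chr19:34473778-34475164) and *Lipa* (chr19:34492318-34527474) lie 17154 bases apart on the minus strand with 0 protein-coding genes between them. *Npc1* (chromosome 18) overlaps *Rmc1* on the opposite strand.

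In microglia, the members rose and fell at different times. *Ch25h*, *Lpl* and *Plin2* were higher than in Ctrl microglia at every time point tested, from D1 on, and *Npc1* was lower at D1. Of the exporter genes, *Abcg1* was called at D1, D3, D10 and D21 and *Abca1* at D10 alone. The lysosomal carrier *Npc2* was called from D3 on, *Lipa* at D3 and *Soat1* at D10. The edgeR quasi-likelihood test, over 17 microglia sums of the mixed and resident libraries with time and sex as terms and p-values adjusted over 10801 genes, called 5 of 10 members at D1, 4 higher and *Npc1* lower, where 46.6% of all genes were called, 23.9% higher and 22.7% lower. At D2 it called 3 members (29.7% of all genes, 17.6% higher and 12.2% lower), and at D3 6 (37.6%, 20.1% higher and 17.6% lower). At D10 it called 7 (10.3%, 8.06% higher and 2.22% lower) and at D21 5 (6.98%, 6.12% higher and 0.861% lower). Members called after D1 were all higher. The median log2 change of the 10 members was 0.46, 0.52, 1.33, 1.93 and 2.05 at the 5 time points, against -0.01, -0.02, -0.04, -0.01 and -0.08 over all genes. Without D2_mixed 2 the count was 4 at D2, and without D3_mixed 3 it was 5 at D3. Each of these comparisons rests on 2 Ctrl libraries, which all 5 share. The D21 group was 1 library, so its SE and p assume that it varies like the libraries of the other groups. The microglia of 2 infiltrating libraries, 36 cells in D10_infiltrating 2 and 41 in D21_infiltrating 1, were not in this fit.

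**Figure D1:**
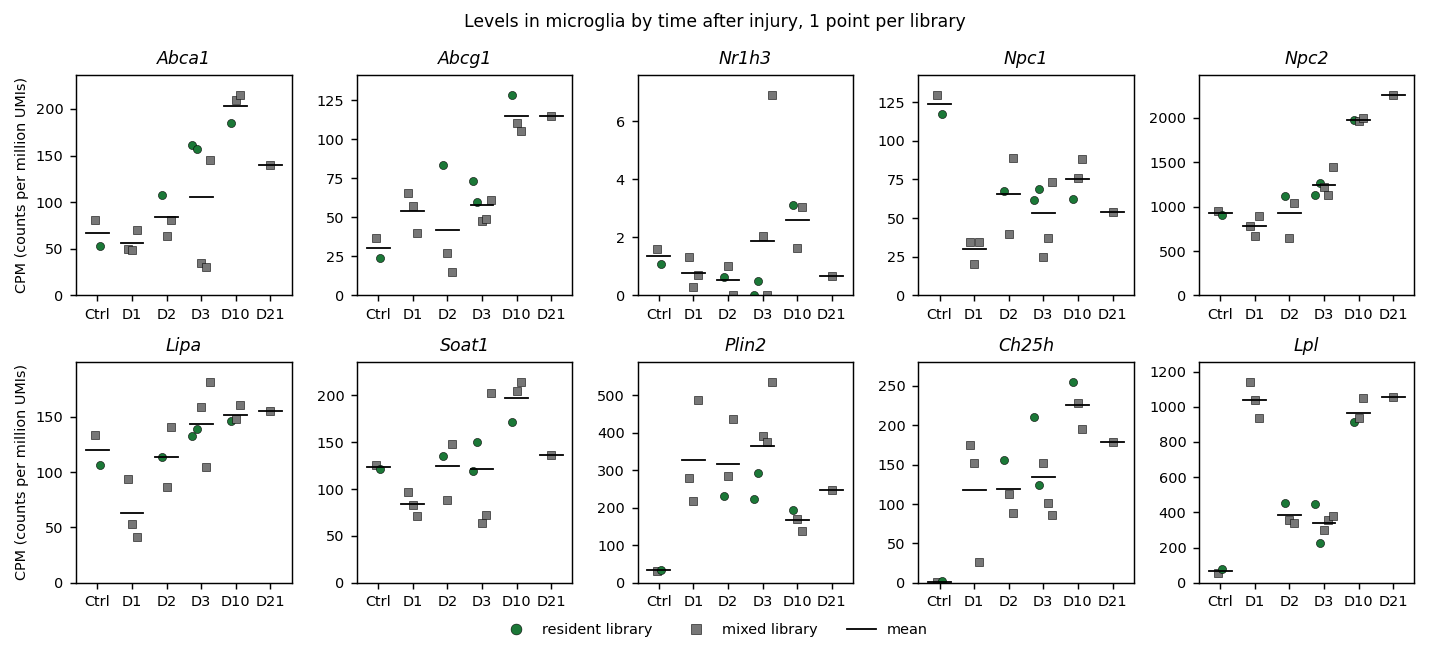
Level of each member in microglia, in CPM (vertical axes, from 0), by time after injury, with 1 point per library (green circles resident, grey squares mixed) and a line at the mean. *Ch25h* sat at 0.893 and 1.62 in the Ctrl libraries and between 26.0 and 255 in every later library, while *Lpl* was high at D1, lower at D2 and D3 and high again at D10 and D21.

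*Ch25h* went from a few counts in Ctrl to 26.0 CPM or more in every injured library. The Ctrl_mixed library had 0.893 CPM and the Ctrl_resident library 1.62 CPM, 8 counts among 7451300 UMIs in all, or 1.07 CPM with an exact Poisson 95% interval of 0.464 to 2.12 that covers counting error only. At D1 the 3 mixed libraries had 175, 152 and 26.0 CPM. At D2 the values were 113 and 88.8 CPM in the mixed libraries and 156 CPM in the resident library. No injured library came near the Ctrl range, and D1_mixed 3 was the lowest of them. At D3 the mixed libraries had 153, 101 and 85.5 CPM and the resident libraries 210.4 and 124 CPM. At D10 the mixed libraries had 229 and 195 CPM and the resident library 255 CPM, and the D21 library had 178 CPM. Outside the fit, the microglia of the infiltrating libraries had 155 CPM at D10 and 77.9 CPM at D21. The fitted log2 change from Ctrl was 7.56 ± 0.84 (SE) at D1, with an edgeR adjusted p of 7.84e-06, and 8.28 ± 0.84 at D10, with an edgeR adjusted p of 7.43e-06. These folds rest on the 8 Ctrl counts, and the gene passed the low-count filter through the injured libraries. With a sequencing pool term the D3 change was 7.59 (adjusted p = 0.0514).

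*Lpl* rose, came down and rose again. It stood at 54.7 and 77.7 CPM in Ctrl and at 1141, 1037 and 936 CPM in the 3 D1 libraries. At D2 it had 354 and 340.5 CPM in the mixed and 453 CPM in the resident library, and at D3 301, 355 and 379.7 CPM in the mixed and 449 and 223 CPM in the resident libraries. The D2 and D3 values lay between the Ctrl and the D1 ranges without touching either. D10 had 934, 1049 and 912 CPM, and D21 had 1054 CPM. These values lay above all D2 and D3 libraries, and D10_mixed 2 and D21 fell in the D1 range. In the infiltrating libraries outside the fit, microglia had 297 CPM at D10 and 265 CPM at D21, below every D10 and D21 library in it. The log2 change from Ctrl was 4.71 ± 0.34 at D1 (edgeR adjusted p = 1.77e-07), 2.95 ± 0.30 at D3 (edgeR adjusted p = 5.09e-06) and 4.46 ± 0.33 at D10 (edgeR adjusted p = 2.09e-07). The fall from D1 to D3 was itself called, with a log2 change of -1.76 ± 0.21 (edgeR adjusted p = 6.73e-05), and so was the rise from D3 to D10, 1.52 ± 0.21 (edgeR adjusted p = 0.000789). With a sequencing pool term the latter was 1.18 and not called (adjusted p = 0.966).

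*Plin2* rose by D1 and came partly down by D10. Ctrl microglia had 32.3 and 33.4 CPM, and the D1 libraries had 279, 218 and 487 CPM. D2 libraries had 284, 437 and 231 CPM, and D3 libraries had 392, 375 and 535 CPM (mixed) and 224 and 291 CPM (resident). These early ranges overlapped one another and lay far above Ctrl. At D10 the levels were 169, 139 and 195 CPM, below all D1 and D3 libraries but above both Ctrl libraries, and at D21 the level was 247 CPM. The log2 change from Ctrl was 3.97 ± 0.44 at D1 (edgeR adjusted p = 7.71e-06) and 2.90 ± 0.41 at D10 (edgeR adjusted p = 0.000169). Between D1 and D10 it fell, with a log2 change of -1.06 ± 0.33 (edgeR adjusted p = 0.0215). That fall was not called without D1_mixed 3 (-0.68, adjusted p = 0.120), D10_mixed 1 (adjusted p = 0.0774) or D10_mixed 2 (adjusted p = 0.116), nor without scaling factors (-0.90, adjusted p = 0.0523). The fall from D3 to D10, -1.08 ± 0.30 (edgeR adjusted p = 0.0415), was likewise lost without D10_mixed 1 (adjusted p = 0.147) or D10_mixed 2 (0.243), with a pool term (0.966) and under 7 of 26 alternatives in all. From mixed libraries alone the D10 difference from Ctrl was 2.45 (adjusted p = 0.170).

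*Abca1* was high in the D10 libraries. Ctrl had 81.1 and 53.4 CPM, D1 had 50.1, 48.7 and 70.6 CPM, and D2 had 64.2, 81.4 and 107 CPM. At D3 the libraries split, with 35.0 and 30.4 CPM in D3_mixed 1 and D3_mixed 2 and 145, 161 and 157 CPM in D3_mixed 3 and the resident libraries. D3_mixed 1 and D3_mixed 2 also had the fewest UMIs per cell of all libraries, medians of 1673 and 1577, and the part of depth in this split was not tested. At D10 the levels were 209.8, 215 and 185 CPM, above all earlier libraries of the fit, and D21 had 140.4 CPM. The microglia of D10_infiltrating 2, outside the fit, had 143 CPM, within the D3 range. The log2 change at D10 was 2.22 ± 0.56 from Ctrl (edgeR adjusted p = 0.0158) and 1.66 ± 0.48 from D1 (edgeR adjusted p = 0.0130). The call against Ctrl did not hold without Ctrl_mixed 1 (2.53, adjusted p = 0.113) or Ctrl_resident 1 (1.92, adjusted p = 0.188) or from mixed libraries alone (1.86, adjusted p = 0.582), and the call against D1 not without D1_mixed 1 (adjusted p = 0.0526), D1_mixed 2 (0.0570) or D10_mixed 2 (0.0557).

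*Abcg1*, which exports cholesterol to high-density lipoprotein, was above Ctrl from D1 on in most libraries. Ctrl had 36.6 and 24.3 CPM, D1 had 65.4, 57.0 and 39.7 CPM, and D2 had 27.1, 14.8 and 83.4 CPM, the last in the resident library. The 14.8 CPM of D2_mixed 2 were 2 counts in 23 cells, and without that sum both D2 libraries lay above 24.3 CPM, the lower Ctrl value. The D2 change, 1.09 ± 0.45 (edgeR adjusted p = 0.0735), was not called, and was called without D2_mixed 2 (1.21, adjusted p = 0.0431). D3 ran from 47.4 to 73.5 CPM over its 5 libraries, D10 had 111, 106 and 129 CPM, and D21 had 115 CPM. The D1, D3 and D10 ranges all lay above Ctrl. The log2 change from Ctrl was 1.54 ± 0.46 at D1 (edgeR adjusted p = 0.0121), 1.51 ± 0.43 at D3 (edgeR adjusted p = 0.0115), 2.48 ± 0.45 at D10 (edgeR adjusted p = 0.00161) and 2.75 ± 0.54 at D21 (edgeR adjusted p = 0.00317). Without Ctrl_resident 1 the change was 1.19 at D1 (adjusted p = 0.157), 1.16 at D3 (0.162) and 2.14 at D10 (0.0519), from mixed libraries alone it was 2.42 (0.0787), 2.22 (0.139) and 3.25 (0.106), and without scaling factors the D1 and D3 calls were lost (0.83, adjusted p = 0.132, and 0.93, adjusted p = 0.0753).

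*Nr1h3* was barely detected in microglia, so its counts are given in place of a fold change from Ctrl. Its counts were 9 and 2 in the Ctrl libraries, 6, 1 and 3 at D1, 2, 0 and 5 at D2, 1, 0, 11, 0 and 1 at D3, 8, 13 and 7 at D10, and 3 at D21. Summed by group, that was 1.48 CPM in Ctrl, 0.807 CPM at D1 and 2.45 CPM at D10. None of the 17 sums in the fit exceeded 6.92 CPM. The microglia of the infiltrating libraries outside it had 1 count at D10 and 3 at D21.

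Of the lysosomal genes, *Npc1* was lower than Ctrl at D1 and *Npc2* higher from D3, and both rose from D1 to D10. *Npc1*, the membrane transporter, was at 129.9 and 118 CPM in Ctrl and at 34.6, 20.5 and 34.3 CPM at D1. It then lay between 39.6 and 88.8 CPM at D2, between 24.7 and 73.6 CPM at D3 and between 62.1 and 88.3 CPM at D10, and all injured libraries of the fit were below both Ctrl libraries in CPM. Only D1 was called against Ctrl, with a log2 change of -1.46 ± 0.39 (edgeR adjusted p = 0.00553). From mixed libraries alone, which leave 1 Ctrl library, the change was -2.29 (adjusted p = 0.123), and without scaling factors D2 and D3 were called lower too. From D1 to D10 *Npc1* rose by a log2 change of 1.27 ± 0.34 (edgeR adjusted p = 0.00910). The D10 call against D1 was lost without D1_mixed 2 (adjusted p = 0.0595) or D10_mixed 2 (0.0583). *Npc2*, the soluble carrier, had 952 and 902 CPM in Ctrl, 785, 667 and 897 CPM at D1, 642 to 1122 CPM at D2, 1129.7 to 1443 CPM at D3, 1961, 2001 and 1972 CPM at D10 and 2262 CPM at D21. The mean of the 3 D10 libraries was 1978 ± 20.6 CPM (SD, n = 3). Its log2 change from Ctrl was 0.93 ± 0.23 at D3 (edgeR adjusted p = 0.00528), 1.64 ± 0.25 at D10 (edgeR adjusted p = 0.000400) and 2.25 ± 0.31 at D21 (edgeR adjusted p = 0.000177). The D3 call was lost without Ctrl_resident 1 (0.73, adjusted p = 0.122), without scaling factors (0.34, adjusted p = 0.203) and under 3 of 26 alternatives in all. From mixed libraries alone, which leave 1 Ctrl library, the D10 change was 1.18 and was not called. From D1 to D10 *Npc2* rose by a log2 change of 1.27 ± 0.22 (edgeR adjusted p = 0.000594).

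*Lipa* and *Soat1* were lower at D1 than at D10. *Lipa* had 133 and 106 CPM in Ctrl, 93.8, 53.6 and 41.8 CPM at D1, 105 to 182 CPM at D3 and 146 to 161 CPM at D10. Its D1 values lay below both Ctrl and all D3 libraries, and its log2 change was 1.08 ± 0.25 from D1 to D3 (edgeR adjusted p = 0.00732; 0.0537 without D1_mixed 2 and 0.0502 from mixed libraries alone) and 1.18 ± 0.28 from D1 to D10 (edgeR adjusted p = 0.00410). The difference from Ctrl at D3, 0.80 ± 0.30 (edgeR adjusted p = 0.0432), was 0.21 without scaling factors (adjusted p = 0.582), and this call was lost under 17 of 26 alternatives. *Soat1* had 126 and 122 CPM in Ctrl, 97.3, 82.9 and 71.3 CPM at D1, 63.9 to 203 CPM at D3 and 172 to 214 CPM at D10. The D3 range enclosed Ctrl, and the D10 range lay above it. Its log2 change was 1.17 ± 0.33 from D1 to D10 (edgeR adjusted p = 0.0112) and 1.20 ± 0.37 from Ctrl to D10 (edgeR adjusted p = 0.0467). The latter was not called without Ctrl_resident 1 (0.99, adjusted p = 0.336), without scaling factors (0.61, adjusted p = 0.213) and under 16 of 26 alternatives in all. The call against D1 was lost without D10_mixed 2 (1.09, adjusted p = 0.0551).

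**Figure D2:**
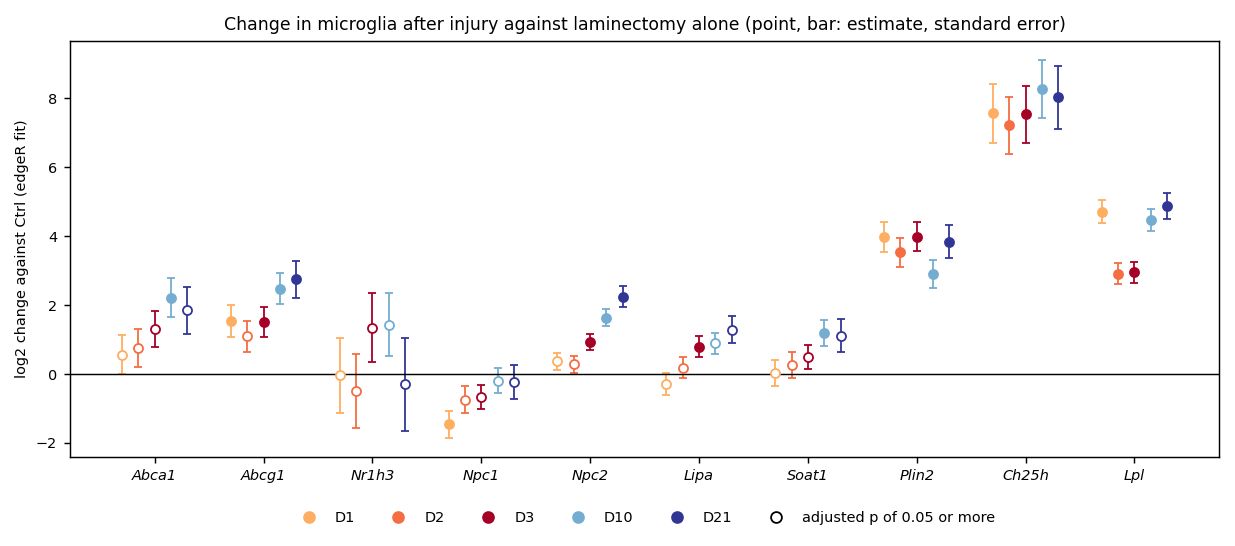
Fitted log2 change from Ctrl in microglia for each member at the 5 times after injury, with its SE as the bar; open points had an edgeR adjusted p of 0.05 or more. *Ch25h* is between 7.22 and 8.28 at all 5 time points, *Abca1* is filled at D10 alone, and the *Nr1h3* points rest on at most 13 counts per library.

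The direct comparisons between injured time points gave 2 members called at D3 against D1, 1 in each direction (18.8% of all genes, 8.62% higher and 10.2% lower), 6 at D10 against D1 (33.7%) and 3 at D10 against D3, 2 higher and 1 lower (6.88%, 2.96% higher and 3.92% lower). From D1 to D10, 5 members rose (*Abca1*, *Soat1*, *Lipa*, *Npc1* and *Npc2*) against 17.7% of all genes, *Plin2* fell, against 16%, and the median change of the members was 1.17 against 0.07 over all genes. From D3 to D10 *Lpl* and *Npc2* (0.71 ± 0.19, edgeR adjusted p = 0.0339) rose and *Plin2* fell, and the *Npc2* call was lost under 8 of 26 alternatives and its direction turned with a pool term (-0.0311). At D10 against D1 the count was 2 without D10_mixed 2. At D3 against D1 it was 1 without D1_mixed 2 and 5 without D3_mixed 2. At D10 against D3 it was 1 without D3_mixed 1, D3_mixed 2 or any single D10 library, and 0 with a sequencing pool term. Against Ctrl, the count without Ctrl_resident 1 was 3 at D3 and 4 at D10.

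Several technical and cellular measures moved with time. The 9 microglia markers summed to 26611 to 30015 CPM in the Ctrl sums and to 4787 to 9100 CPM at D1, 7074 to 13228 CPM at D2, 10995 to 14625 CPM at D3, 14366 to 16049 CPM at D10 and 11587 CPM at D21. The 9 macrophage markers summed to 347 to 390.0 CPM in Ctrl, with 2 to 4 of them at 0, 999 to 1389 CPM at D1, 1066 to 1129 CPM at D2, 1679.9 to 2469.6 CPM at D3, 2239 to 3490.1 CPM at D10 and 4670 CPM at D21. The 8 monocyte markers summed to at most 183 CPM in any microglia sum. Their part in the results was not tested. All 1887 Ctrl cells formed cluster 1 of the deposited clustering, which held no other cell. Library-scaling factors shifted the median of all genes against Ctrl by 0.72 (D1), 0.39 (D2), 0.59 (D3), 0.59 (D10) and 0.86 (D21) on the log2 scale. Without them, 22.6% of called genes were higher at D1 and not 51.2%, 32.6% and not 59.1% at D2, 22.9% and not 53.4% at D3, 18.6% and not 78.4% at D10, and 14.7% and not 87.7% at D21. No called member changed direction. The printed CPM carry no such factor, so against Ctrl a ratio of CPM is lower than the fitted fold.

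Sequencing pools held different time points. D10 and Ctrl shared a pool for the mixed (2 and 1 libraries) and another for the resident libraries (1 and 1). In both, *Npc1* was lower at D10 in CPM, by log2 ratios of -0.66 and -0.92, and the other members were higher. The share of all genes that were higher in these pools is not given here. *Lipa* was higher by only 0.21 and 0.46, and *Nr1h3* rests on 7 against 2 counts in the resident pool. Within these pools the log2 CPM ratio was 7.89 and 7.30 for *Ch25h*, 4.18 and 3.55 for *Lpl*, 2.25 and 2.54 for *Plin2*, 1.39 and 1.79 for *Abca1*, 1.56 and 2.41 for *Abcg1*, and 1.06 and 1.13 for *Npc2*. In the pool shared by the resident D2 and Ctrl libraries, *Ch25h* was higher by 6.59, *Plin2* by 2.79 and *Lpl* by 2.54. No pool held both groups, and no fit with a pool term was possible, for D1 or D21 against Ctrl, for D3 or D10 against D1 in microglia, or for D10 against D1 in macrophages: there, the pool cannot be told apart from the time point.

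Other genes of these pathways, taken from lists of related genes, were counted in the same microglia fits. Among 15 tested LXR partners and targets, 2 were higher and 3 lower than Ctrl at D1 (23.9% and 22.7% of all genes), 4 higher and 2 lower at D3 (20.1% and 17.6%), and 4 higher and 0 lower at D10 (8.06% and 2.22%). The apolipoprotein genes *Apoc1* and *Apoe* and the phospholipid transfer gene *Pltp* had the largest log2 changes at D10, 8.60 ± 0.59, 5.69 ± 0.54 and 5.39 ± 0.66. At D1 the transporter gene *Abca7* fell (-2.21 ± 0.53) and the fatty acid synthase gene *Fasn* rose (2.03 ± 0.41). Of 23 tested genes of sterol synthesis and uptake, 2 were higher and 2 lower at D1, 1 higher and 7 lower at D3 (against the same shares of all genes), and 0 in either direction at D10 and D21. *Sqle* and *Sc5d*, enzymes of the synthesis pathway, fell at D3 (-1.61 ± 0.52 and -1.56 ± 0.33).

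Of 16 tested lipid droplet and neutral lipid genes, 5 were higher and 4 lower than Ctrl at D1, 4 higher and 3 lower at D3, and 2 higher and 2 lower at D10. Over all genes 46.6%, 37.6% and 10.3% were called at these times, so the D1 and D3 counts are near that background. *Hilpda*, a hypoxia-inducible droplet protein, rose at D1 (2.83 ± 0.74) and fell from D1 to D10 (-2.13 ± 0.60). *Plin3*, another perilipin, was higher at D2 (1.84 ± 0.36), D3 (1.83 ± 0.35) and D10 (1.15 ± 0.34). *Nceh1*, a hydrolase of cholesterol esters, was higher at D10 (2.16 ± 0.48), and *Mgll*, which cleaves monoglycerides, was lower (-1.60 ± 0.36). Of 14 tested late endosome genes, 1 was higher and 1 lower at D1 and 2 were higher and 0 lower at D10, *Gramd1b* (1.65 ± 0.43) and *Lamp1* (1.13 ± 0.26).

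In macrophages, the storage gene *Plin2* and the receptor gene *Nr1h3* were lower at D10 than at D1, and no member was called higher at any time point in the main fit. No Ctrl cell carried the macrophage code, so D1 was the reference, in 15 sums of infiltrating and mixed libraries and 8577 tested genes. The edgeR quasi-likelihood test called 0 members at D2 (0% of all genes; 123 genes and 0 members had an unadjusted p under 0.05) and 0 at D3 (0%; 612 genes and 1 member had). DESeq2 called 0 genes at D2 and 16 genes but 0 members at D3. Without D2_mixed 2 or D3_mixed 3 these counts were also 0. At D10, 2 members were called, both lower (14.4% of all genes were called, 7.31% higher and 7.04% lower), and at D21 1, also lower (3.56%, 1.95% higher and 1.61% lower). The median member change was -0.66 at D10 and -0.57 at D21, against 0.01 and -0.02 over all genes.

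**Figure D3:**
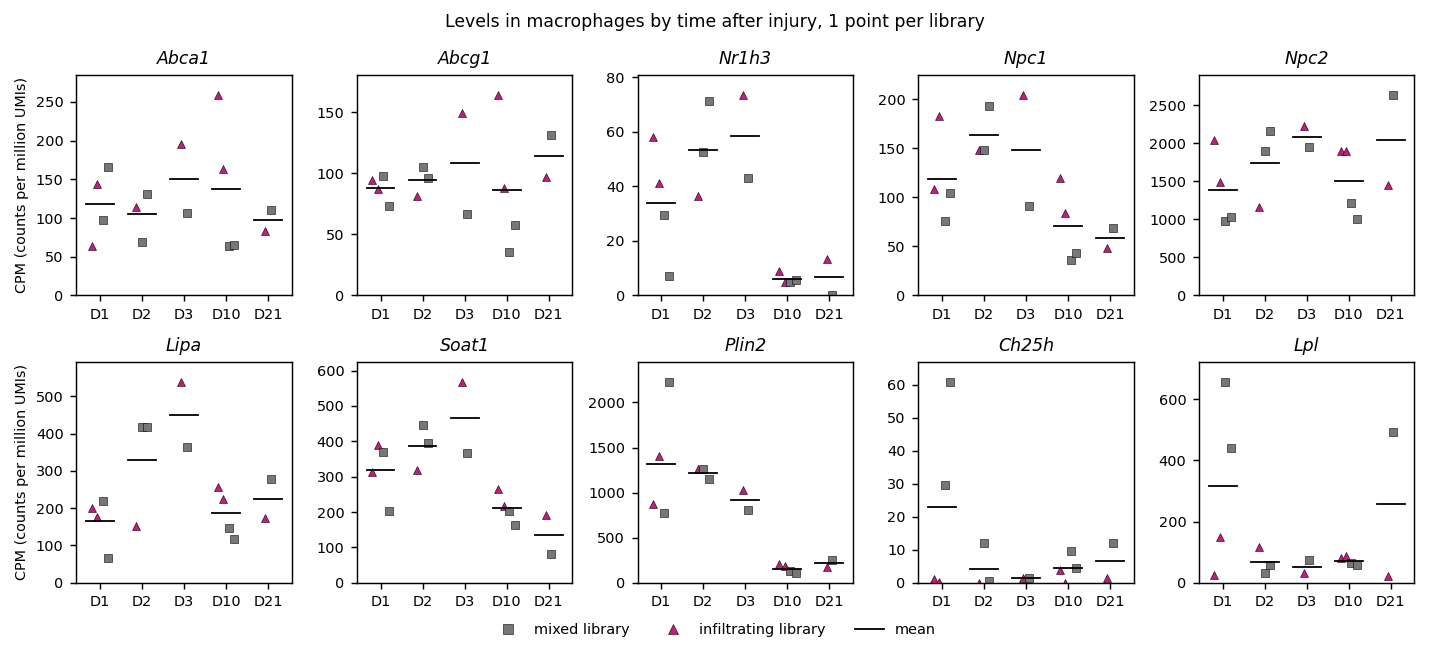
Level of each member in macrophages, in CPM (vertical axes, from 0), by time after injury, with 1 point per library (magenta triangles infiltrating, grey squares mixed) and a line at the mean. *Plin2* lies between 771 and 2228 CPM from D1 to D3 and between 104 and 257 CPM at D10 and D21.

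*Plin2* fell in every late library. At D1 the infiltrating libraries had 874 and 1403 CPM and the mixed libraries 771 and 2228 CPM. D2 had 1258, 1257 and 1152 CPM, and D3 had 1034 and 810.3 CPM. The first 3 days thus shared one range. At D10 the infiltrating libraries had 208 and 185 CPM and the mixed libraries 133 and 104 CPM, and at D21 the values were 172 and 257 CPM. Late and early ranges did not overlap. The log2 change from D1 was -3.03 ± 0.40 at D10 (edgeR adjusted p = 0.000598) and -2.47 ± 0.53 at D21 (edgeR adjusted p = 0.0233). The D21 call was lost without D1_infiltrating 2 (adjusted p = 0.0589), D21_infiltrating 1 (0.320) or D21_mixed 1 (0.0637), and with a pool term (-2.15, adjusted p = 0.161).

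*Nr1h3* had 58.1 and 41.3 CPM in the infiltrating and 29.7 and 7.30 CPM in the mixed D1 libraries. It stood at 36.3, 52.6 and 71.3 CPM at D2 and at 73.7 and 43.1 CPM at D3. D10 had 8.92, 4.96, 4.88 and 5.55 CPM, a range that overlapped D1 through D1_mixed 3 alone. D21_infiltrating 1 had 13.2 CPM, and D21_mixed 1 had 0 of 334823 UMIs, which allows up to 8.96 CPM. The log2 change from D1 to D10 was -2.47 ± 0.55 (edgeR adjusted p = 0.0112), and it was -1.88 without D1_infiltrating 1 (adjusted p = 0.0588) and -2.29 without D1_infiltrating 2 (adjusted p = 0.0569), and -1.45 from mixed libraries alone (adjusted p = 0.224).

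*Lipa* was the 1 member with an unadjusted p under 0.05 at D3, at a log2 difference from D1 of 1.52 ± 0.50 (edgeR adjusted p = 0.644), with 199, 177, 220.3 and 65.7 CPM at D1 and 538 and 363 CPM at D3. *Soat1* was at 202 to 388 CPM at D1, 319 to 447 CPM at D2, 366 and 568 CPM at D3, 163 to 266 CPM at D10 and 191 and 80.6 CPM at D21, below every D1 library at D21. *Npc1* was at 76.3 to 183 CPM at D1, 35.8 to 119 CPM at D10 and 48.6 and 68.7 CPM at D21. Neither passed the test at any time point. At D10 the exporters were higher in the infiltrating libraries: *Abca1* had 259 and 164 CPM in the infiltrating but 63.5 and 65.4 CPM in the mixed libraries, and *Abcg1* 164, 87.6, 35.8 and 57.7 CPM. The macrophages of D10_resident 1, outside the fit, had 248 CPM of *Abca1* and 168 CPM of *Abcg1*. The 8 monocyte markers summed to 869 and 1979 CPM in the infiltrating and to 6144 and 5858 CPM in the mixed D10 sums, and the 9 macrophage markers to 39000 and 27719 CPM against 14253 and 14190 CPM. Neither the difference by sort within macrophages nor the part of these markers in it was tested. *Npc2* ranged from 983 to 2052 CPM at D1 and from 1004 to 1903 CPM at D10.

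*Ch25h* and *Lpl* in macrophages differed by sort at D1. *Ch25h* had 1.06 and 0.250 CPM in the infiltrating and 29.7 and 60.8 CPM in the mixed D1 libraries, and at most 11.9 CPM in any later library of the fit. The macrophages of resident libraries, outside the fit, had 56.2 CPM at D2, 8.44 and 6.99 CPM at D3 and 51.004 CPM at D10. *Lpl* had 25.2 and 149 CPM in the infiltrating and 657 and 440.3 CPM in the mixed D1 libraries, 31.1 to 115 CPM at D2, 57.7 to 86.0 CPM at D10, and 22.1 and 493 CPM at D21. The 9 microglia markers summed to 370 and 291 CPM in the infiltrating and to 1025 and 1396 CPM in the mixed D1 sums, with 0 to 3 of them at 0, and the mixed sums held only 28 and 54 cells. The 6 border macrophage markers summed to 600 and 2381 CPM in the infiltrating and to 1114 and 7339 CPM in the mixed D1 sums, the last in D1_mixed 3. The part of either marker list in the difference was not tested. No macrophage change of either gene was called, and the direction of *Ch25h* from D1 to D10, -1.97 ± 1.66 on the log2 scale (edgeR adjusted p = 0.460), turned to 3.31 when the D1 mixed libraries were left out, an alternative added after the data were seen, and to 0.16 without D1_mixed 3.

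The macrophage code was not made of the same clusters at all times, and its values must be read beside that. At D1, 54.0% of its cells were in cluster 11, 21.0% in cluster 12 and 19.7% in cluster 8. At D2, 53.3% were in cluster 11 and 28.3% in cluster 8, and at D3, 59.0% were in cluster 9 and 20.9% in cluster 11. At D10, 61.1% were in cluster 9 and 22.6% in cluster 3, and at D21, 67.1% were in cluster 3. Clusters 2 and 3 are otherwise mostly coded microglia (1801 of 1924 and 3312 of 3660 cells), and the share of macrophage-coded cells that fell in them was 0.788% and 0.265% in the D1 infiltrating libraries, 32.1% and 37.0% in the D1 mixed libraries, 10.9% to 60.3% at D10 and 46.1% and 92.3% at D21. The 9 microglia markers summed to 998 to 3345 CPM in the D10 and 2347 and 4761 CPM in the D21 macrophage sums. The 6 border macrophage markers summed to 600 to 7339 CPM at D1, 855 to 1879 CPM at D2 and 691 and 953 CPM at D3. At D10 they summed to 101 to 534 CPM and at D21 to 71.7 and 393 CPM, and their part in the changes was not tested. Without the macrophage-coded cells of clusters 2 and 3, an alternative added after the data were seen, *Plin2* still fell from D1 to D10 (-3.24, edgeR adjusted p = 0.00107) and so did *Nr1h3* (-2.55, adjusted p = 0.0169). At D21 no member was then called (*Plin2* -3.24, adjusted p = 0.0681).

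Within cluster 9 alone, *Plin2* had 918 CPM in D1_infiltrating 1, 94.5 CPM in D3_infiltrating 1, 811 CPM in D3_mixed 3, and 195, 168 and 287 CPM in the 3 D10 libraries with at least 20 such cells. The early values thus lay on both sides of the late ones in this cluster. *Abca1* in the same cells was 78.5 CPM at D1, 217 and 109.6 CPM at D3, and 302, 345 and 262 CPM at D10. In cluster 11, which held 6 cells of D10 and 2 of D21 and otherwise cells of D1 to D3, *Plin2* was between 1115 and 1790 CPM in all 10 libraries with at least 20 such cells.

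Among the other listed genes, *Apoe* (3.52 ± 0.67) and *Apoc1* (3.39 ± 0.70) rose in macrophages from D1 to D10, the only 2 called of 13 tested LXR partners and targets, where 14.4% of all genes were called. *Hilpda* (-5.22 ± 0.97) and *Abhd5*, a co-activator of triglyceride lipase (-0.90 ± 0.27), fell, the only 2 called of 11 tested droplet genes. Of 16 tested sterol synthesis genes 0 were called, and of 14 late endosome genes 1 was lower. These counts are given as a description.

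The change from D1 to D10 differed between macrophages and microglia for 4 members. In one edgeR fit over 32 sums of both cell types and 11486 genes, which treats the sums of 1 library as separate observations, the difference of the log2 changes (macrophages minus microglia) was called for *Soat1* (-1.77 ± 0.46, adjusted p = 0.0155), *Plin2* (-1.95 ± 0.51, adjusted p = 0.0170), *Npc1* (-2.01 ± 0.57, adjusted p = 0.0237) and *Nr1h3* (-4.03 ± 0.96, adjusted p = 0.0106). That was 4 of 10 members against 12.6% of all genes, 6.45% above 0 and 6.12% below it. The *Nr1h3* value rests on microglial counts of 10 at D1 and 28 at D10, and its size is uncertain for that reason. *Soat1* and *Npc1* were called higher in microglia at D10 and not called in macrophages, while *Plin2* fell in both and by more in macrophages. The median difference over the members was -1.77, against -0.05 over all genes. All 4 calls were lost without D10_mixed 2 (adjusted p = 0.0954, 0.0759, 0.139 and 0.0792 in the order above) and *Npc1* also without D1_infiltrating 2 (0.0830). Without D10_mixed 1 the count was 1, without D1_mixed 2 it was 2, and it was 1 when cells with under 1000 UMIs or in the top 2% were removed. With a pool term *Npc1* (adjusted p = 0.0587) and *Nr1h3* (0.0817) were not called, while *Ch25h* (-4.13, adjusted p = 0.0195) and *Lpl* (-2.82, adjusted p = 0.00936) were. Leaving out the macrophage-coded cells of clusters 2 and 3 kept all 4, between -1.78 for *Soat1* and -4.05 for *Nr1h3*.

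**Figure D4:**
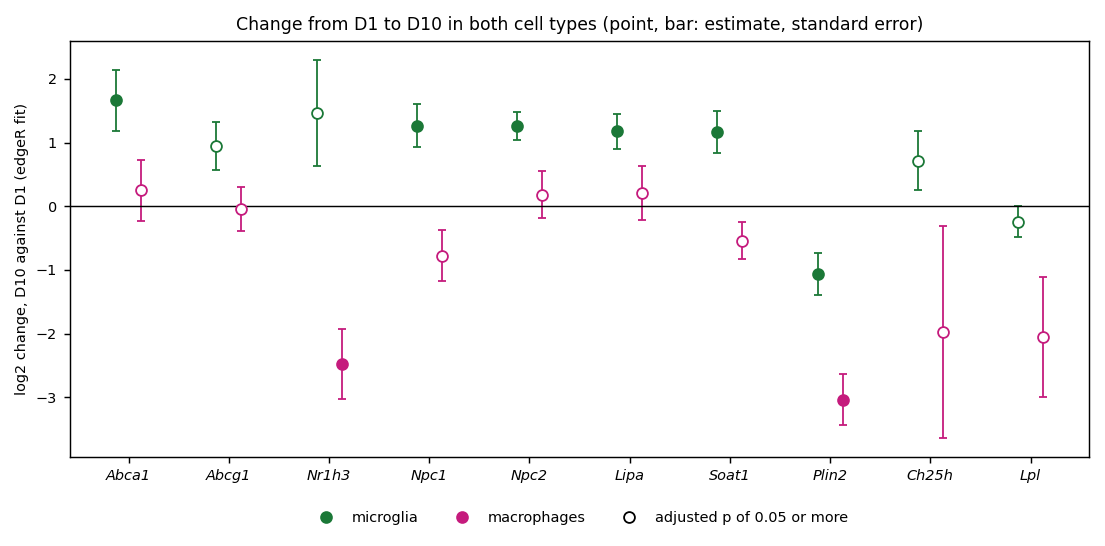
Fitted log2 change from D1 to D10 of each member in microglia (green) and macrophages (magenta), with its SE as the bar. For *Soat1* and *Npc1* the microglia point lies above 0 (1.17 and 1.27) and the macrophage point below it, and *Plin2* is lower in both, -1.06 and -3.03; the microglia point of *Nr1h3* rests on 10 and 28 counts.

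Microglia and macrophages of the same library shared dissection, sort and sequencing, and 14 libraries held enough of both. *Lpl* was higher in microglia in 14 of 14 and *Ch25h* in 13 of 14, the exception being D1_mixed 3 with 26.0 CPM in microglia and 60.8 CPM in macrophages. In the 8 such libraries of D1 to D3, *Plin2*, *Soat1*, *Npc1*, *Npc2*, *Lipa*, *Abcg1* and *Nr1h3* were higher in macrophages in all 8, by median ratios of 3.46 for *Plin2*, 2.85 for *Soat1*, 2.54 for *Npc1* and 1.76 for *Npc2*. In the 6 libraries of D10 and D21, *Plin2*, *Npc2* and *Abca1* were higher in macrophages in 2, *Soat1* and *Nr1h3* in 3, and *Abcg1*, *Lipa* and *Npc1* in 4. Cells were assigned to a type by their expression, so these counts are a description.

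Over the libraries of each cell type, *Ch25h* averaged 132 CPM in microglia and 9.23 CPM in macrophages, was at 0 in all 4 neutrophil-like sums and averaged 0.168 CPM in the 9 dendritic-like sums. *Nr1h3* averaged 30.1 CPM in macrophages, 17.7 CPM in dendritic-like, 13.6 CPM in neutrophil-like cells and 1.44 CPM in microglia, and the ranges of neighbours in this order overlapped. The neutrophil-like sums came from D1 and D2 alone. There *Plin2* averaged 1274 CPM at D1 and 712 CPM at D2 in neutrophil-like cells, against 1319 and 1222 CPM in macrophages and 328 and 317 CPM in microglia. The neutrophil-like and macrophage ranges overlapped at D1 and not at D2. *Abca1* was lowest in dendritic-like cells, at 16.3 CPM (4.36 to 39.9).

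By cluster, cluster 11, a macrophage cluster, was highest for *Plin2* (1466 CPM of the summed cells), *Nr1h3* (76.3 CPM), *Npc2* (2267 CPM), *Soat1* (490.4 CPM) and *Lipa* (379.9 CPM). These cluster values include the D3 library left out of the main tests, which gave 897 of the 2116 cells of cluster 16. Cluster 14 was close for *Plin2* (1448 CPM) and cluster 3, mostly coded microglia, for *Npc2* over pooled cells (2249 CPM), though by library median it had 1720.3 CPM against 2466 CPM in cluster 11. Cluster 14 was highest for *Abca1* (448 CPM), *Abcg1* (277 CPM), *Npc1* (361 CPM) and, over pooled cells, *Lpl* (1214 CPM). It held 118 cells with a median of 1488 UMIs, and only 2 libraries had 20 of them. The medians of those 2 libraries were above those of cluster 11 for *Soat1* (732 against 474 CPM) and *Lipa* (589 against 348 CPM). For *Lpl* their median, 728 CPM, was below those of clusters 4 (1100.3 CPM) and 5 (771 CPM). *Ch25h* was highest in the microglia clusters 4 (221 CPM), 7 (174 CPM) and 5 (167 CPM). The macrophage cluster 14 came next, with 121 CPM from 42 counts, and with 0 and 254 CPM in its 2 libraries. Cluster 1, the Ctrl cells, had the lowest *Plin2*, 32.6 CPM. Within cluster 3 *Ch25h* differed between libraries: it had 4.43 and 48.0 CPM in the D10 infiltrating libraries against 96.1 to 157 CPM in the D10 mixed and resident libraries. Of the D10 infiltrating cells, 60 and 70 in clusters 2 and 3 were coded macrophage, whereas those libraries held 10 and 36 microglia in all, and the part of this mix was not tested.

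**Figure D5:**
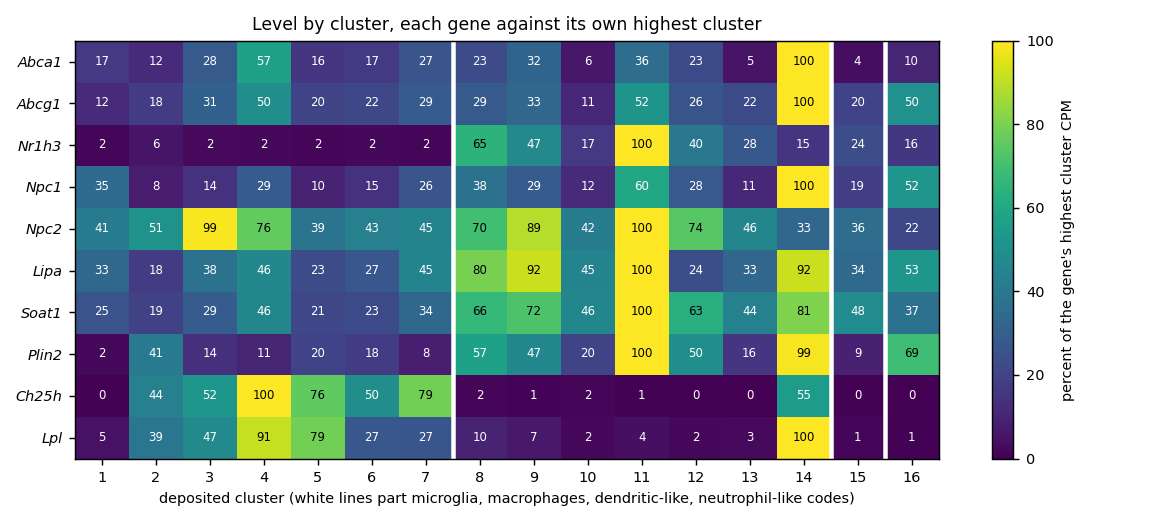
Level of each member in the 16 deposited clusters, as a percent of the gene's highest cluster, from the CPM of the summed cells; white lines part the cell type codes. *Ch25h* is high in clusters 4, 5 and 7, at 54.8% in the macrophage cluster 14, and near 0 in the dendritic-like and neutrophil-like clusters. The cells of all 25 libraries are included.

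The sort was compared over whole libraries, 7 infiltrating and 5 resident, with time and sex as terms. Only D2 (1 infiltrating and 1 resident library), D3 (1 and 2) and D10 (2 and 1) held both sorts. With time as a term the fitted difference thus rests on these time points, while the ranges below cover all sorted libraries. *Ch25h* ranged from 0 to 11.9 CPM in infiltrating libraries (median 1.48) and, apart from the Ctrl library at 1.62 CPM, from 76.5 to 189 CPM in resident ones. *Lpl* ranged from 21.4 to 132 CPM (median 70.7) against 77.7 to 652 CPM (median 298), and *Nr1h3* from 3.67 to 48.3 CPM (median 29.1) against 1.08 to 26.2 CPM (median 10.2). Of 10 members 3 were called among 10074 genes (10.7% of all genes, 5.02% higher and 5.67% lower in infiltrating libraries): *Ch25h* was lower in infiltrating libraries (-6.30 ± 0.83, edgeR adjusted p = 0.00369), *Lpl* was lower (-2.90 ± 0.57, adjusted p = 0.0168) and *Nr1h3* was higher (0.94 ± 0.22, adjusted p = 0.0278). Without D2_infiltrating 1, D2_resident 1, D3_infiltrating 1 or D3_resident 1, *Ch25h* was the 1 member called. *Lpl* was also not called without D10_infiltrating 2 (adjusted p = 0.0504) or D10_resident 1 (0.0639), nor *Nr1h3* without D3_resident 2 (0.0786) or D10_infiltrating 1 (0.0608) or with a pool term (0.112). Infiltrating libraries held 0.253% to 26.5% microglia and resident libraries 67.9% to 100%, and the cell makeup and the level per cell cannot be told apart here.

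The genes that followed each member most closely across sums are a description, since the sums share libraries, depth and time points. Over the 17 microglia sums, log2 CPM of *Plin2* correlated best with *Capg* (Pearson r = 0.974), *Npc2* with *Lyz2* (0.954), *Ch25h* with *Cd72* (0.941), *Lpl* with *Plaur* (0.939) and *Lipa* with *Ctsd* (0.920). Over the 15 macrophage sums, *Plin2* correlated best with *App* (0.980) and then *Hmox1* (0.958). Among member pairs, *Abca1* with *Soat1* was highest in microglia (0.918) and *Nr1h3* with *Soat1* in macrophages (0.911). *Npc1* and *Plin2* went with each other in macrophages (0.766) and against each other in microglia (-0.486).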

How the data were processed

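Each library has a deposited matrix of unnormalised UMI counts (genes by cells) and an annotation with each cell's type code, cluster and sequencing pool, per the file headers. Per the submitters' processing notes, the authors used Cell Ranger 3.1.0 and GRCm38/mm10. Counts were summed per library and cell type code (at least 20 cells) and tested with edgeR 4.0.16 (quasi-likelihood, TMM scaling, low-count filter, R 4.3.3), with time and sex as terms and Benjamini-Hochberg adjustment over all genes tested. The threshold was 0.05. Sums held 135097 to 7794902 UMIs in microglia and 235999 to 22068469 in macrophages. DESeq2 1.42.0, limma 3.58.1, other scalings and filters, sort subsets, pool terms and omission of each library were alternatives. The fits were tested on simulated data. A log2 change is given with its SE. Nothing says that libraries of a group came from separate experiments, so p-values measure the spread between libraries. All 10 members are described, with up to 3 called genes of largest change per pathway list. The members and lists were chosen with earlier results of these data known. Doublets were not called here. Intervals cover counting error only, at the 95% level, and floors are 3 counts. One gene of these lists is not reported by name here.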

Additional observations from a re-analysis of the deposited data

Results flagged for a closer look

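In 50 groups of 4 to 10 libraries, 3 held a library far from the others, and chance alone marks about 1 in 20. In the D10 macrophages, D10_infiltrating 1 had 8.92 CPM of *Nr1h3*, and the other 3 libraries lay between 4.88 and 5.55 CPM. Over all cells of the infiltrating libraries, D10_infiltrating 1 had 233.7 CPM of *Abca1* against 51.3 to 125 CPM in the other 6. The same library had 159.7 CPM of *Abcg1* against 73.4 to 107 CPM in the others. The change from D1 to D10 differed between macrophages and microglia, in edgeR's test of the difference itself, for *Soat1* (-1.77 on the log2 scale), *Plin2* (-1.95), *Npc1* (-2.01) and *Nr1h3* (-4.03). All 4 calls were lost without D10_mixed 2, and that of *Nr1h3* rests on microglial counts of 10 at D1 and 28 at D10.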

How the results depend on the processing

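Of 47 called member values, recomputed 1222 times under the alternatives, 1100 kept direction and call, 121 kept direction but not the call, and 1 turned. The counts of called members moved most when libraries were few, and the causes were not tested. Shares of all genes called under the alternatives are not given here, so the counts describe how calls moved and are no result about the members. From mixed libraries alone the count was 1 at D3 against D1 and 1 at D10 against D3 in microglia, and 2 at D2 against D1 in macrophages. Mixed libraries alone leave 1 library for Ctrl, for D3 macrophages and for D21, so no count is given for those comparisons. With a sequencing pool term the count was 5 at D2 against Ctrl, 0 at D10 against D3 and 0 for macrophages at D21. DESeq2 called 4 at D3 against D1. Removing cells with under 1000 UMIs or in the top 2% left 1 member whose D1 to D10 change differed between cell types. Leaving out 1 library gave, in microglia against Ctrl, 4 to 5 (D1), 3 to 4 (D2), 3 to 7 (D3), 4 to 7 (D10) and 5 to 6 (D21), 1 to 5 at D3 against D1, 2 to 7 at D10 against D1 and 1 to 4 at D10 against D3. In macrophages it gave 0 (D2), 0 (D3), 1 to 2 (D10) and 0 to 1 (D21), for the difference between cell types 0 to 5 and for the sort 1 to 3. The lowest macrophage D10 count was without D1_infiltrating 2.

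Added after the data were seen, leaving out the macrophage-coded cells of clusters 2 and 3 gave 0 called members at D21. Infiltrating libraries alone, which were also added, leave 1 library at D21, so no count is given for them. Among 70 uncalled member changes under 1 on the log2 scale, the sign turned in 155 of 1812 values, with 0 of those called, and they are not given singly. Among the others, direction turned for *Npc2* at D10 against D3 with a pool term (-0.0311), and for *Abcg1* at D2 against Ctrl from mixed libraries alone (-0.00855) and without D2_resident 1 (-0.0211, of a range up to 1.64 over the omissions). In macrophages against D1 the uncalled changes of 2 members turned. *Lpl* was 2.10 at D2 and 2.89 at D3 with a pool term, and 1.37 at D2 and 0.41 at D10 from infiltrating libraries alone. *Ch25h*, from infiltrating libraries alone, was 2.11 (D3), 1.54 (D10) and 2.47 (D21). Without the D1 mixed sums, which was also added, it was 1.05 (D2), 2.09 (D3), 3.31 (D10) and 3.26 (D21). Omitting 1 library gave -2.87 to 0.16 at D10 (0.16 without D1_mixed 3) and -3.58 to 0.69 at D21 (0.64 without D1_mixed 3, 0.69 without D21_infiltrating 1), and with the replicate block 1.74 at D21. Its difference between cell types was 1.92 without the D1 mixed sums and -3.11 to 1.39 over the omissions, the last without D1_mixed 3.

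Deviations of same-numbered libraries correlated between -0.188 and 0.113. With groups of 2 or 3 libraries, such values cannot show whether library numbers pair the samples. With the replicate block the counts were 4, 3, 6, 7 and 6 against Ctrl at D1, D2, D3, D10 and D21, 2 at D3 against D1, 5 at D10 against D1, 4 at D10 against D3, 0, 0, 2 and 1 in macrophages, and 4 for the difference between cell types. Depth limits the Ctrl values of *Ch25h* and all microglial values of *Nr1h3*.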
